A study of Mus musculus with 11 samples.

Results

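Transcripts of 7 genes of sphingosine-1-phosphate (S1P) signalling were followed in the left ventricle of 11 mice: the receptors S1pr1, S1pr2 and S1pr3, the kinases Sphk1 and Sphk2, the lyase Sgpl1 and the exporter Spns2. The members were chosen by symbol, as a list of pathway genes, with their levels in the 4 groups of these same libraries already known. All 7 were found among 25006 genes in the count files, and all 7 were among the 14779 genes that passed the filter on low counts. Their group levels and the differences between groups are therefore given as a description, and the number of members past a threshold is printed beside the share of all genes past it, from which nothing is read about the members.

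RNA came from naive mice or from mice killed 9 days after myocardial infarction (MI) by permanent ligation of the left anterior descending coronary artery, with 1 library for each mouse. Mice formed 4 groups, naive control (n = 2, M45 and M44), naive Vegfc-deficient (n = 3, M34, M150 and M149), MI control (n = 3, M38, M006 and M40) and MI Vegfc-deficient (n = 3, M35, M913 and M900). The genotype field of the labels calls the controls Vegfc fl/fl, but they are LysMCre mice in the protocol field and in the methods of the study, and a figure legend of the study names the strain C57BL/6 beside Vegfc fl/fl, so whether controls carried the Cre or the floxed alleles cannot be told from these sources. Vegfc-deficient mice are Vegfc fl/fl ; LysMCre, in which the Cre is driven from the lysozyme locus of myeloid cells, while cells of the ventricle without the Cre keep their Vegfc alleles. Infarcted tissue was taken after MI and a piece of similar size and place from naive hearts, and the age of these mice is not given in the sources used here. The comparisons ask how the S1P genes differ between infarcted and naive tissue in each genotype, and between genotypes in each state.

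S1P is a lipid mediator made when sphingosine kinases phosphorylate sphingosine. It leaves endothelial cells through SPNS2, is dephosphorylated by phosphatases or cleaved irreversibly by S1P lyase inside cells, and acts on G protein-coupled receptors. S1PR1 couples to Gi and is known for keeping the endothelial barrier and for guiding lymphocytes out of lymphoid organs, whereas S1PR2 and S1PR3 also couple to Gq and to G12/13 and are found on smooth muscle, fibroblasts, macrophages and other cells of the heart.

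The libraries held 10824989 to 26782728 counts. Levels are in CPM, the usual unit for a gene's counts relative to its library's total, here after scaling by edgeR's TMM method, and the detection floor, set at 3 counts in a library, lay at 0.101 to 0.363 CPM and covers counting error only. Vegfc, the targeted gene, was at 34.7 and 25.1 CPM in the naive control mice M45 and M44 and at 30.6, 34.5 and 27.5 CPM in the naive Vegfc-deficient mice M34, M150 and M149. After MI it was at 21.9, 45.5 and 25.8 CPM in the control mice M38, M006 and M40 and at 29.4, 22.4 and 25.3 CPM in the Vegfc-deficient mice M35, M913 and M900, so its count in whole tissue overlapped between genotypes. Lyz2, the gene that carries the Cre insertion, was at 2121 to 2282 CPM in naive control libraries and at 4538 to 5380 CPM in MI control libraries. Among Vegfc-deficient libraries it ranged from 12.4 to 1392 CPM after MI and was at 245 and 72.5 CPM in naive M34 and M150. Library M149, labelled naive Vegfc-deficient, had 4565 CPM, above both naive control libraries, which goes against the label. Log2 fold changes of single members and pathway genes printed below are given with and without M149 where leaving it out moves them by over 1.5 times or across the threshold. Differences not printed can move as well, such as that of S1pr2 between naive genotypes, -0.14 with M149 and -0.35 without it. The 6 MI libraries had 188 to 403 CPM of Xist and the 5 naive libraries 0.624 to 11.8 CPM, with Y-linked genes the other way, so MI and the sex of the mice cannot be told apart in any comparison of MI with naive hearts.

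Per length of transcript (RPKM, CPM divided by the exon length in units of 1000 bases), S1pr1 was the highest of the 7 members in naive control hearts, at 52.6 RPKM, followed by Sgpl1 at 15.2 and S1pr3 at 13.5 RPKM. S1pr2, Spns2, Sphk2 and Sphk1 were at 4.29, 4.15, 3.93 and 1.29 RPKM. In MI control hearts S1pr1 at 27.5 RPKM and Sgpl1 at 26.1 RPKM stood side by side, S1pr2 was the third at 9.87 RPKM, and S1pr3 had moved down to 3.28 RPKM, between Sphk2 at 4.55 and Sphk1 at 3.02 RPKM. Within the receptor family, S1pr2 was thus below S1pr3 in naive hearts and above it in infarcted hearts.

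**Figure D1:**
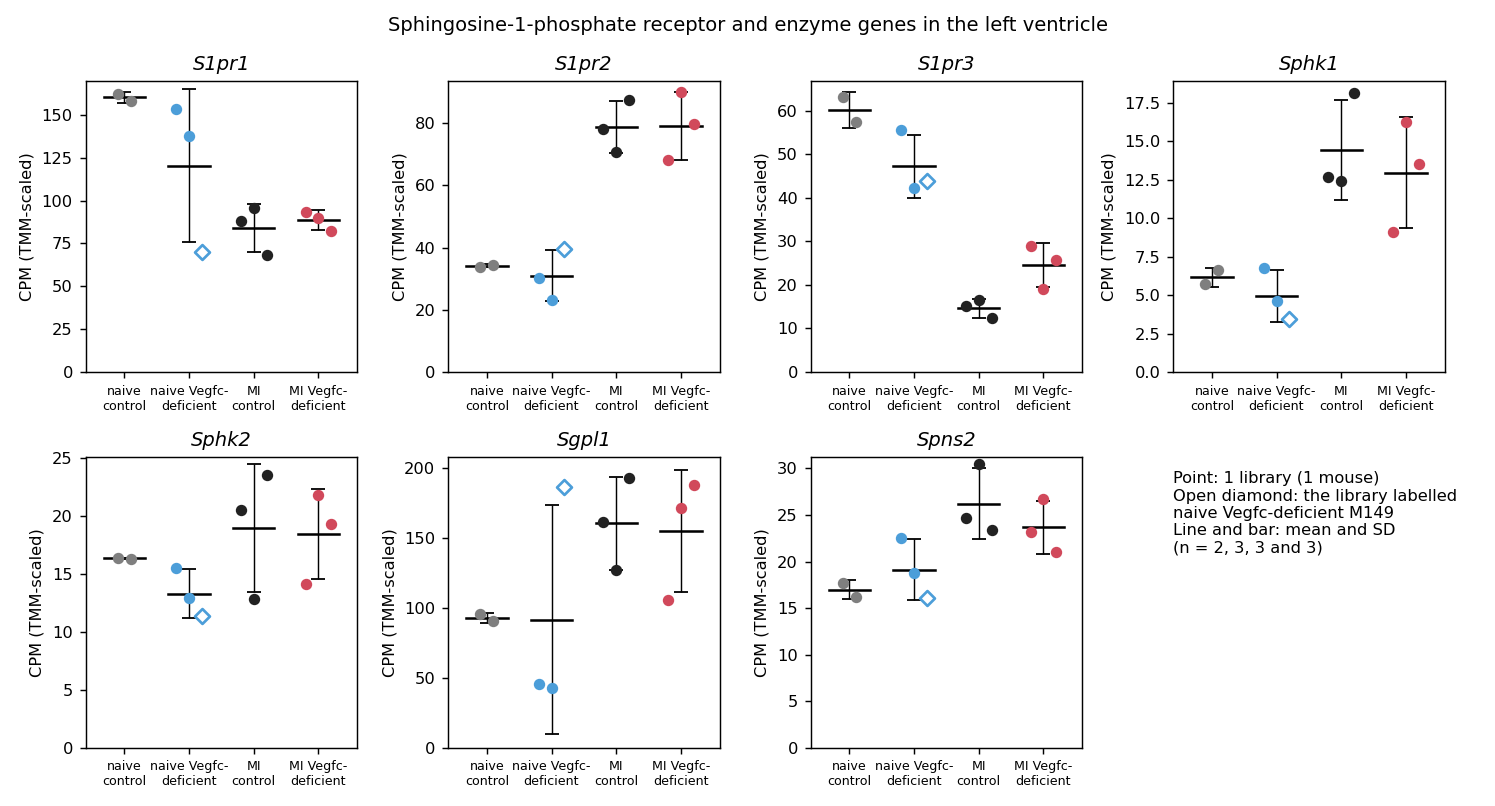
TMM-scaled CPM of the 7 members on the vertical axes, with 1 point per library in the 4 groups, lines for group means and bars for SD (n = 2, 3, 3 and 3). S1pr2 and Sphk1 lie higher in all 6 MI libraries than in all 5 naive libraries and S1pr3 lies lower, while the open diamond of M149 stands apart from its group in S1pr1 (69.9 CPM) and Sgpl1 (186.6 CPM). Of 14779 genes tested, 10650 had MI and naive groups without overlap in control hearts and 9502 in Vegfc-deficient hearts.

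S1pr1 (ENSMUSG00000045092, chromosome 3, 115710433 to 115715072, minus strand, GRCm38) encodes the Gi-coupled receptor of endothelium and lymphocytes. It was at 162 and 158 CPM in naive control M45 and M44, and at 88.0, 95.5 and 68.1 CPM in MI control M38, M006 and M40. It was at 154, 138 and 69.9 CPM in naive Vegfc-deficient M34, M150 and M149, and at 93.6, 89.8 and 82.1 CPM in MI Vegfc-deficient M35, M913 and M900. Both naive control libraries lay above all MI libraries. In the Vegfc-deficient groups M34 and M150 lay above every MI library, and M149 lay below every MI library of its genotype. The log2 fold change of MI against naive was -0.93 in control hearts (standard error 0.28, 95% interval -1.54 to -0.32) and -0.44 in Vegfc-deficient hearts (standard error 0.25, 95% interval -1.0 to 0.11). Without M149 the latter was -0.72 (standard error 0.16, 95% interval -1.08 to -0.36).

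S1pr2 (ENSMUSG00000043895, chromosome 9, 20962361 to 20976781, minus strand) encodes a receptor that couples to several G protein families. It was at 33.8 and 34.5 CPM in naive control M45 and M44 and at 78.0, 70.7 and 87.4 CPM in MI control M38, M006 and M40. In naive Vegfc-deficient M34, M150 and M149 it was at 30.4, 23.1 and 39.4 CPM, and in MI Vegfc-deficient M35, M913 and M900 at 68.0, 89.9 and 79.5 CPM. All 6 MI libraries lay above all 5 naive libraries, and the 2 genotypes overlapped in each state. Across the 14779 genes tested, MI and naive groups did not overlap for 10650 in control hearts and 9502 in Vegfc-deficient hearts. The log2 fold change of MI against naive was 1.20 in control hearts (standard error 0.21, 95% interval 0.73 to 1.68) and 1.35 in Vegfc-deficient hearts (standard error 0.19, 95% interval 0.94 to 1.77). Between the MI groups it was 0.0087 (95% interval -0.40 to 0.41).

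S1pr3 (ENSMUSG00000067586, chromosome 13, 51408639 to 51422797, plus strand) encodes a receptor that couples to Gi, Gq and G12/13. It was at 63.1 and 57.3 CPM in naive control M45 and M44 and at 15.1, 16.5 and 12.3 CPM in MI control M38, M006 and M40. In naive Vegfc-deficient M34, M150 and M149 it was at 55.5, 42.4 and 43.8 CPM, and in MI Vegfc-deficient M35, M913 and M900 at 29.0, 19.1 and 25.6 CPM. The 4 groups lay in an order without overlap between neighbours: naive control at 60.2 ± 4.04 CPM (SD, n = 2), naive Vegfc-deficient at 47.2 ± 7.20 CPM (SD, n = 3), MI Vegfc-deficient at 24.6 ± 5.07 CPM (SD, n = 3) and MI control at 14.7 ± 2.14 CPM (SD, n = 3). Of the 14779 genes tested, 22.4% had naive genotypes without overlap and 12.1% had MI genotypes without overlap. MI and naive Vegfc-deficient hearts did not overlap for 9502 genes. The share of all genes with such an order of 4 groups was not computed, so nothing is read from it. The log2 fold change of MI against naive was -2.04 in control hearts (standard error 0.20, 95% interval -2.48 to -1.60) and -0.95 in Vegfc-deficient hearts (standard error 0.18, 95% interval -1.35 to -0.55). Without M149 the latter was -0.999.

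The upstream sequences of S1pr2 and S1pr3 are shown because these were the receptors that rose and fell most between naive and infarcted tissue in control hearts. RefSeq promoter windows of build GRCm38.p6 were found for 6 of the 7 members, all but S1pr1. Each line gives the 250 bases before the RefSeq start, 5′ to 3′ on the strand of the gene, with capitals for GGGCGG (the GC box), CACCC (the core of the sites of KLF factors), CCAAT and TATAAA, searched on both strands, where CACCC on the other strand reads GGGTG. The S1pr2 window is chr9:20976794-20977043, minus strand, and the S1pr3 window is chr13:51408368-51408617, plus strand.
S1pr2: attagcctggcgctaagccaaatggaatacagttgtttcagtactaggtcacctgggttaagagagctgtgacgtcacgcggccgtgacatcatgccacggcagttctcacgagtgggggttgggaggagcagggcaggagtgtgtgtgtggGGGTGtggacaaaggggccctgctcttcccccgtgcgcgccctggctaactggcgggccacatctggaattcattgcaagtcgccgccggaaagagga
S1pr3: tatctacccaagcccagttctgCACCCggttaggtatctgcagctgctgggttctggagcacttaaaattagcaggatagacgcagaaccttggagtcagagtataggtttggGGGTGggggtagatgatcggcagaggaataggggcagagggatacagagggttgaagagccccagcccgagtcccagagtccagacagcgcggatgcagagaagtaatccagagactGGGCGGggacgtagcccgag
The S1pr2 window held 1 CACCC match. The S1pr3 window held 2 CACCC matches and 1 GGGCGG match, and none of these overlapped another. Of 32817 windows of the same length in the RefSeq table, 52% held CACCC, 32.7% GGGCGG, 33.8% CCAAT and 12.4% TATAAA, and a match is a run of letters, not a shown binding site. The counts are per gene and do not tell which start was used.

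Within the receptor family the mix per length shifted. S1pr1 held 73.4% ± 0.498 (SD, n = 2) of the summed RPKM of the 5 receptors in naive control hearts and 65.0% ± 4.65 (SD, n = 3) in MI control hearts. The share of S1pr2 was 5.99% ± 0.244 in naive control and 23.8% ± 5.19 in MI control hearts, and that of S1pr3 was 18.8% ± 0.777 and 7.77% ± 0.405 (SD, n = 2 and 3). In MI Vegfc-deficient hearts the shares were 63.8% ± 1.78 for S1pr1, 21.9% ± 3.36 for S1pr2 and 12.1% ± 2.44 for S1pr3 (SD, n = 3). The share of S1pr3 ran from 9.32% to 13.8% in those libraries and from 7.47% to 8.23% in MI control libraries, without overlap. S1pr4, a receptor of lymphoid and myeloid cells, and S1pr5, known from natural killer cells and brain, together made up the small remainder in every library, with group means of at most 3.17% and 0.602%.

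**Figure D2:**
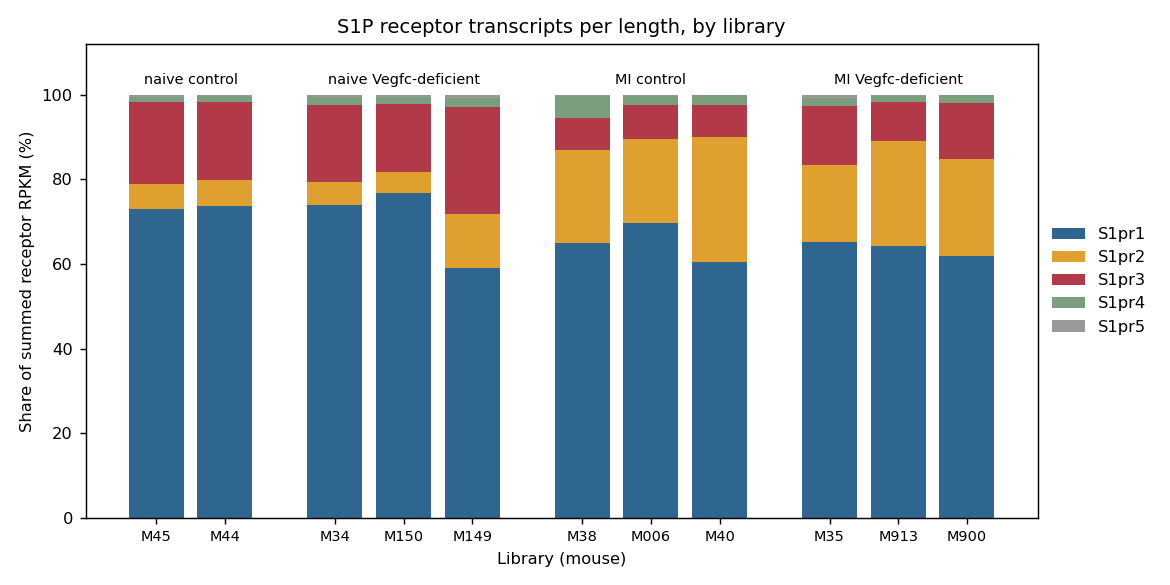
Share of each of the 5 S1P receptor genes in their summed RPKM (vertical axis, %), with 1 bar per library. In MI control libraries S1pr2 takes 19.7% to 29.6% and S1pr3 7.47% to 8.23%, where naive control libraries have 5.81% to 6.16% and 18.3% to 19.4%.

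Sphk1 (ENSMUSG00000061878, chromosome 11, 116530925 to 116536674, plus strand) encodes the inducible, mainly cytosolic sphingosine kinase. It was at 5.71 and 6.60 CPM in naive control M45 and M44 and at 12.7, 12.4 and 18.2 CPM in MI control M38, M006 and M40. In naive Vegfc-deficient M34, M150 and M149 it was at 6.75, 4.60 and 3.43 CPM, and in MI Vegfc-deficient M35, M913 and M900 at 9.11, 16.2 and 13.5 CPM. All MI libraries lay above all naive libraries. The log2 fold change of MI against naive was 1.23 in control hearts (standard error 0.33, 95% interval 0.49 to 1.97) and 1.39 in Vegfc-deficient hearts (standard error 0.30, 95% interval 0.73 to 2.04). Between the MI groups it was -0.15 (95% interval -0.77 to 0.46), and the libraries overlapped.

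Sphk2 (ENSMUSG00000057342, chromosome 7, 45709467 to 45718002, minus strand) encodes the kinase found in the nucleus and mitochondria. It was at 16.4 and 16.3 CPM in naive control M45 and M44 and at 20.5, 12.8 and 23.5 CPM in MI control M38, M006 and M40. In naive Vegfc-deficient M34, M150 and M149 it was at 15.5, 13.0 and 11.4 CPM, and in MI Vegfc-deficient M35, M913 and M900 at 14.2, 21.8 and 19.3 CPM. MI and naive libraries overlapped in both genotypes, with log2 fold changes of 0.21 (95% interval -0.38 to 0.81) in control and 0.47 (95% interval -0.061 to 1.0) in Vegfc-deficient hearts. Its exons share 539 bases with Dbp and 373 with Rpl18, both on the opposite strand. The strand setting of the counting is not given in the sources used here. Whether reads in the shared bases were counted for Sphk2, for a neighbour or for neither can therefore not be told. Rpl18 was at 128.7 to 174.0 CPM in naive and 76.4 to 157 CPM in MI libraries. The ratio of Sphk1 to Sphk2, both per length, was 0.303 to 0.352 in naive control libraries and 0.539 to 0.846 in MI control libraries, and 0.263 to 0.379 and 0.560 to 0.649 in naive and MI Vegfc-deficient libraries, so in both genotypes every MI library had the higher ratio.

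Sgpl1 (ENSMUSG00000020097, chromosome 10, 61098642 to 61147703, minus strand) encodes S1P lyase, the enzyme of the endoplasmic reticulum that ends the pathway. It was at 95.7 and 90.5 CPM in naive control M45 and M44 and at 161.6, 127.0 and 193.3 CPM in MI control M38, M006 and M40. In naive Vegfc-deficient M34 and M150 it was at 45.9 and 42.6 CPM, below both naive control libraries, whereas the library labelled naive Vegfc-deficient M149 was at 186.6 CPM. In MI Vegfc-deficient M35, M913 and M900 it was at 106.1, 171.6 and 188.5 CPM. The log2 fold change of MI against naive was 0.79 in control hearts (standard error 0.56, 95% interval -0.47 to 2.04) and 0.76 in Vegfc-deficient hearts (standard error 0.50, 95% interval -0.34 to 1.86). Without M149 the value in control hearts was again 0.79, with a smaller error (standard error 0.26, 95% interval 0.21 to 1.36), and that in Vegfc-deficient hearts was 1.81 (standard error 0.27, 95% interval 1.21 to 2.41). Between naive genotypes the log2 fold change was -0.022 with M149 and -1.07 without it (standard error 0.28, 95% interval -1.70 to -0.45). The latter rested on 2 naive Vegfc-deficient libraries and did not pass after adjustment over all genes (adjusted p = 0.332 by edgeR).

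Spns2 (ENSMUSG00000040447, chromosome 11, 72451638 to 72489904, minus strand) encodes the S1P exporter of endothelial cells. It was at 17.7 and 16.2 CPM in naive control M45 and M44 and at 24.7, 30.5 and 23.4 CPM in MI control M38, M006 and M40, without overlap. In naive Vegfc-deficient M34, M150 and M149 it was at 22.5, 18.8 and 16.1 CPM, and in MI Vegfc-deficient M35, M913 and M900 at 23.2, 26.7 and 21.0 CPM, where the groups overlapped. The log2 fold change of MI against naive was 0.63 in control hearts (standard error 0.19, 95% interval 0.22 to 1.04) and 0.31 in Vegfc-deficient hearts (standard error 0.16, 95% interval -0.057 to 0.67), the latter being 0.19 without M149 and 0.18 without M913. Its exons share 131 bases with Mybbp1a on the opposite strand, a gene at 45 to 63.2 CPM across the 11 libraries.

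By the quasi-likelihood test of edgeR, with p-values adjusted after Benjamini and Hochberg over all genes tested, 3 of the 7 members were higher in MI control than in naive control hearts (S1pr2, Sphk1 and Spns2), where 26.3% of all genes tested were higher, and 2 were lower (S1pr1 and S1pr3), where 24.1% were lower. In Vegfc-deficient hearts 2 were higher (S1pr2 and Sphk1) beside 30.0% of all genes, and 1 was lower (S1pr3) beside 27.7%. The median log2 fold change of the 7 members was 0.63 in control and 0.47 in Vegfc-deficient hearts, and that of all genes tested was 0.13 and 0.097. Without M149, 5 members passed in Vegfc-deficient hearts, 3 higher (S1pr2, Sphk1 and Sgpl1) and 2 lower (S1pr1 and S1pr3), beside 29.6% and 27.0% of all genes, and 6 passed in control hearts, where Sgpl1 was added. Without naive control M45, or without M44, only S1pr2 and S1pr3 of the 5 members passed in control hearts. MI and naive groups did not overlap for 6 of the 7 members in control hearts and 3 in Vegfc-deficient hearts. Across all 14779 genes tested, 10650 and 9502 had groups without overlap.

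**Figure D3:**
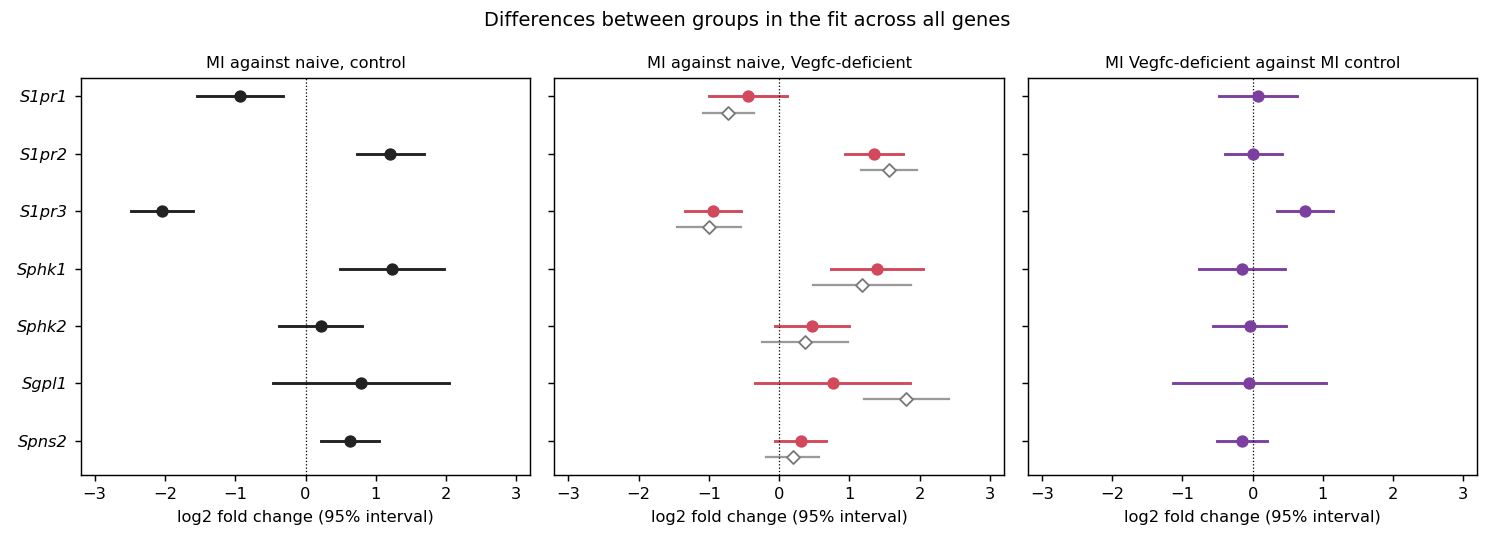
Log2 fold changes of the 7 members (horizontal axes) with 95% intervals, for MI against naive in control hearts, MI against naive in Vegfc-deficient hearts and MI Vegfc-deficient against MI control hearts. Open diamonds, drawn only in the panel of MI against naive in Vegfc-deficient hearts, are for the fit without M149. S1pr3 is at -2.04, -0.95 and 0.75 in the 3 panels, and in the genotype panel the intervals of the other 6 members include 0.

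In MI Vegfc-deficient against MI control hearts, S1pr3 was the member whose groups did not overlap, with all 3 Vegfc-deficient libraries (19.1 to 29.0 CPM) above all 3 control libraries (12.3 to 16.5 CPM). Across all genes tested, 12.1% had groups without overlap. Its log2 fold change was 0.75 (standard error 0.18, 95% interval 0.34 to 1.15), and the adjusted p of the edgeR test was 0.584. By that test 0 of the 7 members passed, and 0% of all genes. S1pr3 was the 1 member with an unadjusted p under 0.05, beside 7.94% of all genes. The DESeq2 Wald test called 0 members on the genes tested, where it called 0.345% of them, with an adjusted p of 0.0728 for S1pr3, and 0 members when all genes with a count were given to it (0.349% called, adjusted p 0.0731 for S1pr3). Leaving out each library in turn, the log2 fold change of S1pr3 ran from 0.61 without M35 to 0.90 without M913. For the other 6 members the log2 fold changes lay between -0.15 and 0.077.

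In naive hearts 0 members and 0% of all genes passed the edgeR test between genotypes after adjustment, and 0 members lay under an unadjusted p of 0.05, beside 3.38% of all genes. The DESeq2 Wald test called 0 members and 0.0947% of the genes tested. S1pr1, S1pr3 and Sphk2 were lower in all 3 Vegfc-deficient libraries than in both control libraries, where 22.4% of all genes had groups without overlap, with log2 fold changes of -0.41 (95% interval -1.03 to 0.20), -0.35 (95% interval -0.79 to 0.090) and -0.30 (95% interval -0.89 to 0.30). Without M149 they were -0.14, -0.30 and -0.20 (standard errors 0.18, 0.22 and 0.30). The interaction of MI and genotype passed the edgeR test after adjustment for 0 members and 0% of all genes. For S1pr3 the difference of the 2 responses was 1.09 on the log2 scale (standard error 0.27, 95% interval 0.50 to 1.69, adjusted p 0.534 by edgeR), and it was the 1 member with an unadjusted p under 0.05, beside 8.30% of all genes. The DESeq2 Wald test of the interaction gave an adjusted p for 4 of the 7 members (none for Sphk1, Sphk2 and Spns2). On the genes tested it called 0 of these 4, with an adjusted p of 0.0517 for S1pr3. It called 55 of the 14779 genes, or 0.372%, a share that includes genes without an adjusted p. When all genes with a count were given, it called 1 member, S1pr3 (adjusted p 0.0456). There it called 54 of the 5799 genes with an adjusted p, or 0.931%. Without M149 the difference of the responses was 1.04 for S1pr3 (standard error 0.29, adjusted p 0.271 by edgeR), and for Sgpl1 it was 1.02 (standard error 0.36, adjusted p 0.346 by edgeR) in place of -0.026.

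The tissue differed in its cell markers along with these genes, and in bulk tissue fewer cells of a type and less RNA per cell cannot be told apart. The summed level of 8 blood endothelial markers was 1218 to 1703 CPM in naive and 652 to 1391 CPM in MI libraries, and 2 of the 8 markers were lower and 0 higher after MI in control hearts, with 2 lower and 1 higher in Vegfc-deficient hearts. Of all genes tested, 24.1% were lower and 26.3% higher after MI in control hearts, and 27.7% and 30.0% in Vegfc-deficient hearts. These shares stand beside the counts of all marker lists given here. S1pr1, known from endothelium, was at 97.7 to 102.6 CPM per 1000 CPM of these markers in naive control libraries and at 68.7 to 115 in MI control libraries, and at 57.4 to 107 and 83.4 to 89.9 in naive and MI Vegfc-deficient libraries, so on this scale MI and naive libraries overlapped. In each genotype the overlap rested on 1 library. In control hearts it was M006, at 68.7, since M38 at 114.9 and M40 at 104.5 lay above both naive control libraries. In the Vegfc-deficient groups it was M149, at 57.4, since M34 at 90.2 and M150 at 106.6 lay above the MI libraries. Spns2 on the same scale was at 10.03 to 11.2 in naive control and 21.9 to 35.9 in MI control libraries, and at 13.2 to 14.5 and 21.2 to 24.8 in naive and MI Vegfc-deficient libraries, without overlap between MI and naive.

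Cardiomyocyte markers were lower after MI for 6 of 6 genes in both genotypes, with a summed level of 42356 to 59426 CPM in naive and 1948 to 16264 CPM in MI libraries. The S1pr3 level was lower in the same libraries. Among MI libraries, M35 had the highest cardiomyocyte sum (16264 CPM) and the highest S1pr3 level, and M40 the lowest of both, but M900, with a sum of 3822 CPM, had an S1pr3 level above that of M38, with a sum of 8827 CPM. Fibroblast markers were higher for 5 of 7 genes in control and 6 of 7 in Vegfc-deficient hearts (4084 to 5651 CPM in naive and 19838 to 30747 CPM in MI libraries), and smooth muscle and pericyte markers were higher for 4 of 6 and lower for 1 in each genotype (1432 to 1889 CPM in naive and 1454 to 3071 CPM in MI libraries). The part of these markers in the S1pr2, Sphk1 and S1pr3 differences was not tested.

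Macrophage markers were higher after MI for 3 of 6 genes in each genotype, beside 26.3% of all genes in control and 30.0% in Vegfc-deficient hearts. Their sum ran from 929 to 1675 CPM in naive and from 1448 to 2952 CPM in MI libraries. The naive library with the highest macrophage sum was M149, which also had the highest Sgpl1 level of the naive libraries (186.6 CPM). M34 and M150 had the lowest sums, 935 and 929 CPM, and the lowest Sgpl1 levels. MI control M38, however, had the highest macrophage sum of all libraries, 2952 CPM, and an Sgpl1 level of 161.6 CPM, below that of M149. The part of macrophage markers in the Sgpl1 differences was not tested. T cell markers were at a sum of 4.01 to 11.4 CPM in naive and 11.4 to 126 CPM in MI libraries, with the highest value in MI control M38, and of the 5 measured of 6 listed, 5 were higher in control and 1 in Vegfc-deficient hearts. B cell markers had 0 of 4 genes past the threshold in either genotype, with a sum of 5.44 to 28.5 CPM across the libraries. Red blood cell genes, from cells that store and release S1P, had 0 of 5 past the threshold in control hearts and 5 of 5 lower after MI in Vegfc-deficient hearts, with a sum of 1092 to 4383 CPM in naive and 309 to 1375 CPM in MI libraries. Between the MI groups 0 genes of any of these 8 lists passed, and the median log2 fold change was 0.58 for cardiomyocyte, -1.75 for T cell, -1.37 for red blood cell and 0.96 for B cell markers. Of the defining markers, 1 T cell gene was at 0 in both naive control libraries and 0 of the other lists' genes were at 0 throughout a group.

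**Figure D4:**
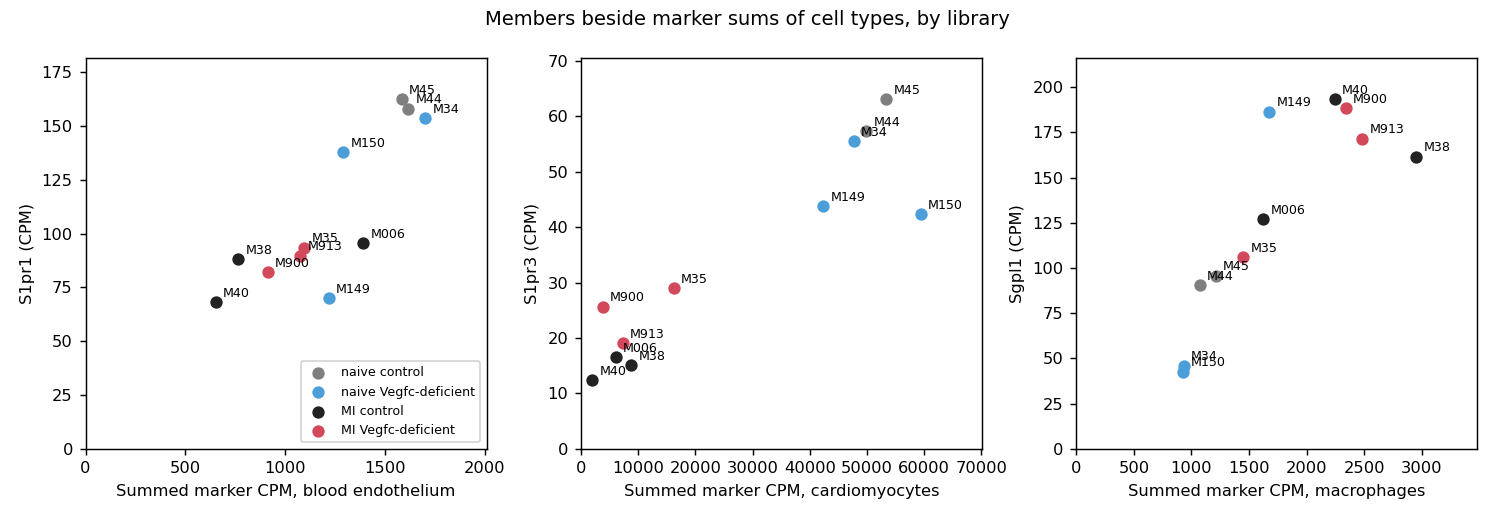
S1pr1, S1pr3 and Sgpl1 (vertical axes, CPM) against the summed CPM of blood endothelial, cardiomyocyte and macrophage markers (horizontal axes), with 1 labelled point per library. MI libraries lie at low cardiomyocyte sums and low S1pr3, and M149 lies at 1675 CPM of macrophage markers and 186.6 CPM of Sgpl1, apart from M34 and M150.

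Beside the members, 52 other genes that make, carry, break down or transmit S1P were read, of which 46 passed the filter on low counts. In control hearts 13 of the 46 were higher after MI (26.3% of all genes were) and 7 were lower (24.1%). In Vegfc-deficient hearts 20 were higher (30.0% of all genes) and 6 lower (27.7%). The medians of the log2 fold change were 0.31 and 0.35, beside 0.13 and 0.097 for all genes. Without M149, 18 were higher and 6 lower in control hearts and 22 and 6 in Vegfc-deficient hearts, with 5 genes gained and 1 lost in the former and 4 gained and 2 lost in the latter. Adjusted p-values of single pathway genes come from the same edgeR fit.

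Of the other receptors, S1pr5 fell in control hearts, by 1.86 on the log2 scale (standard error 0.68, adjusted p = 0.0416 by edgeR), at 4 to 9 counts per MI control library, close to the floor of 3. Without M149 it did not pass (adjusted p = 0.0510 by edgeR). In Vegfc-deficient hearts 0 of 2 passed, with log2 fold changes of -0.33 for S1pr4 and -0.91 for S1pr5. S1pr4 was at 1.90 to 5.44 CPM in all control libraries. Of the 4 S1P phosphatases tested, Plpp2 rose in both genotypes, by 1.63 (standard error 0.46) and 1.04 (standard error 0.39). Sgpp1, the S1P phosphatase of the endoplasmic reticulum, rose in control hearts by 0.44 (standard error 0.13), and Plpp3, which dephosphorylates extracellular lipid phosphates, fell by 0.68 (standard error 0.23). In Vegfc-deficient hearts Sgpp1 had a log2 fold change of 0.14 and Plpp3 one of -0.049, and Plpp1 rose by 0.50 (standard error 0.18). Without M149 neither Plpp1 (0.38, adjusted p = 0.0992 by edgeR) nor Plpp2 (1.03, adjusted p = 0.0891 by edgeR) passed in Vegfc-deficient hearts.

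Among exporters and carriers, Abca1, a transporter of cholesterol and phospholipid to apolipoproteins, rose by 1.81 in control (standard error 0.27, adjusted p = 5.84e-04 by edgeR) and 1.68 in Vegfc-deficient hearts (standard error 0.23, adjusted p = 2.16e-04 by edgeR), from 33.1 ± 8.32 CPM (SD, n = 2) to 116 ± 17.8 CPM (SD, n = 3) in control hearts. Abcc1 rose in Vegfc-deficient hearts by 0.92 (standard error 0.17) and had a log2 fold change of 0.46 (adjusted p = 0.0614 by edgeR) in control hearts, which passed without M149 (adjusted p = 0.0283 by edgeR). Of the ceramidases, which free sphingosine from ceramide, Acer2 of the Golgi fell by 2.29 in control (standard error 0.31, adjusted p = 4.53e-04 by edgeR) and 1.68 in Vegfc-deficient hearts (standard error 0.29, adjusted p = 8.18e-04 by edgeR). It was at 77.8 and 81.1 CPM in naive control libraries and at 10.6 to 23.8 CPM in MI control libraries. Acer3 rose in both genotypes, by 0.90 (standard error 0.29) and 0.67 (standard error 0.25), and Asah2 in Vegfc-deficient hearts by 0.78 (standard error 0.18). The acid ceramidase gene Asah1 had log2 fold changes of 0.38 and 0.34 and did not pass. It was at 98.5 and 101.3 CPM in naive Vegfc-deficient M150 and M34 and at 251.5 CPM in M149, and without M149 it passed in both genotypes, with 0.38 (standard error 0.14) and 0.93 (standard error 0.14).

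Of the ceramide synthases tested, 1 of 5 was higher in control hearts (26.3% of all genes were) and 4 of 5 in Vegfc-deficient hearts (30.0% of all genes). The former was Cers1, at 0 counts in both naive control libraries and 17 to 25 counts in the MI control libraries, which makes it at least 3.24-fold higher against a floor of 3 counts per library. In Vegfc-deficient hearts the smallest p-values among those higher were those of Cers5 (0.46, standard error 0.10), Cers1 and Cers2 (0.51, standard error 0.18). In the de novo pathway Kdsr, the reductase that follows serine palmitoyltransferase, rose in both genotypes, by 0.61 (standard error 0.13) and 0.47 (standard error 0.11). Sptlc1, a subunit of that transferase, rose in Vegfc-deficient hearts by 0.42 (standard error 0.12) and Ormdl1, an inhibitor of it, fell by 0.89 (standard error 0.22).

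In sphingomyelin and glucosylceramide metabolism, Smpd1 (acid sphingomyelinase), Smpd2 and Sgms1 (a sphingomyelin synthase) fell in both genotypes. Smpd1 fell by 1.71 in control (standard error 0.23, adjusted p = 4.47e-04 by edgeR) and 1.09 in Vegfc-deficient hearts (standard error 0.21, adjusted p = 0.00172 by edgeR), and stood at 240.0 ± 11.1 CPM (SD, n = 2) in naive control and 73.2 ± 15.8 CPM (SD, n = 3) in MI control hearts. Ugcg, glucosylceramide synthase, rose by 0.83 (standard error 0.23) and 0.89 (standard error 0.21), and Sgms2 rose in Vegfc-deficient hearts by 1.44 (standard error 0.44). Without M149 Sgms2 rose by 2.31 (standard error 0.30), and in control hearts by 1.118 (standard error 0.28). Aldh3a2, which oxidises the hexadecenal that the lyase releases, had a log2 fold change of -0.15 in control hearts and rose by 0.37 (standard error 0.13) in Vegfc-deficient hearts.

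Of the 7 G alpha subunits through which S1P receptors signal, 4 were higher in each genotype, Gnai1, Gnai2 and Gnai3 of the Gi family and Gnaq. Of all genes tested, 26.3% were higher in control and 30.0% in Vegfc-deficient hearts. In control hearts Gnai3 rose by 0.62 (standard error 0.16), Gnaq by 0.61 (standard error 0.19) and Gnai1 by 0.85 (standard error 0.28). Gna11, Gna12 and Gna13 did not pass in either genotype, with log2 fold changes from -0.11 to 0.32, except that without M149 Gna13 passed in Vegfc-deficient hearts (0.64, standard error 0.23). Among regulators of the receptors, Arrb2 (beta-arrestin 2) rose by 1.56 in control (standard error 0.23, adjusted p = 5.93e-04 by edgeR) and 1.126 in Vegfc-deficient hearts (standard error 0.20, adjusted p = 8.69e-04 by edgeR). Klf2, a transcription factor known for activating S1pr1 in T cells, fell by 0.81 (standard error 0.22) and 0.72 (standard error 0.20). Cd69, which binds S1PR1 and takes it off the surface of lymphocytes, rose in control hearts by 3.29 (standard error 1.03), with its highest value of 12.9 CPM among the MI control libraries, whose lowest was 1.78 CPM.

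**Figure D5:**
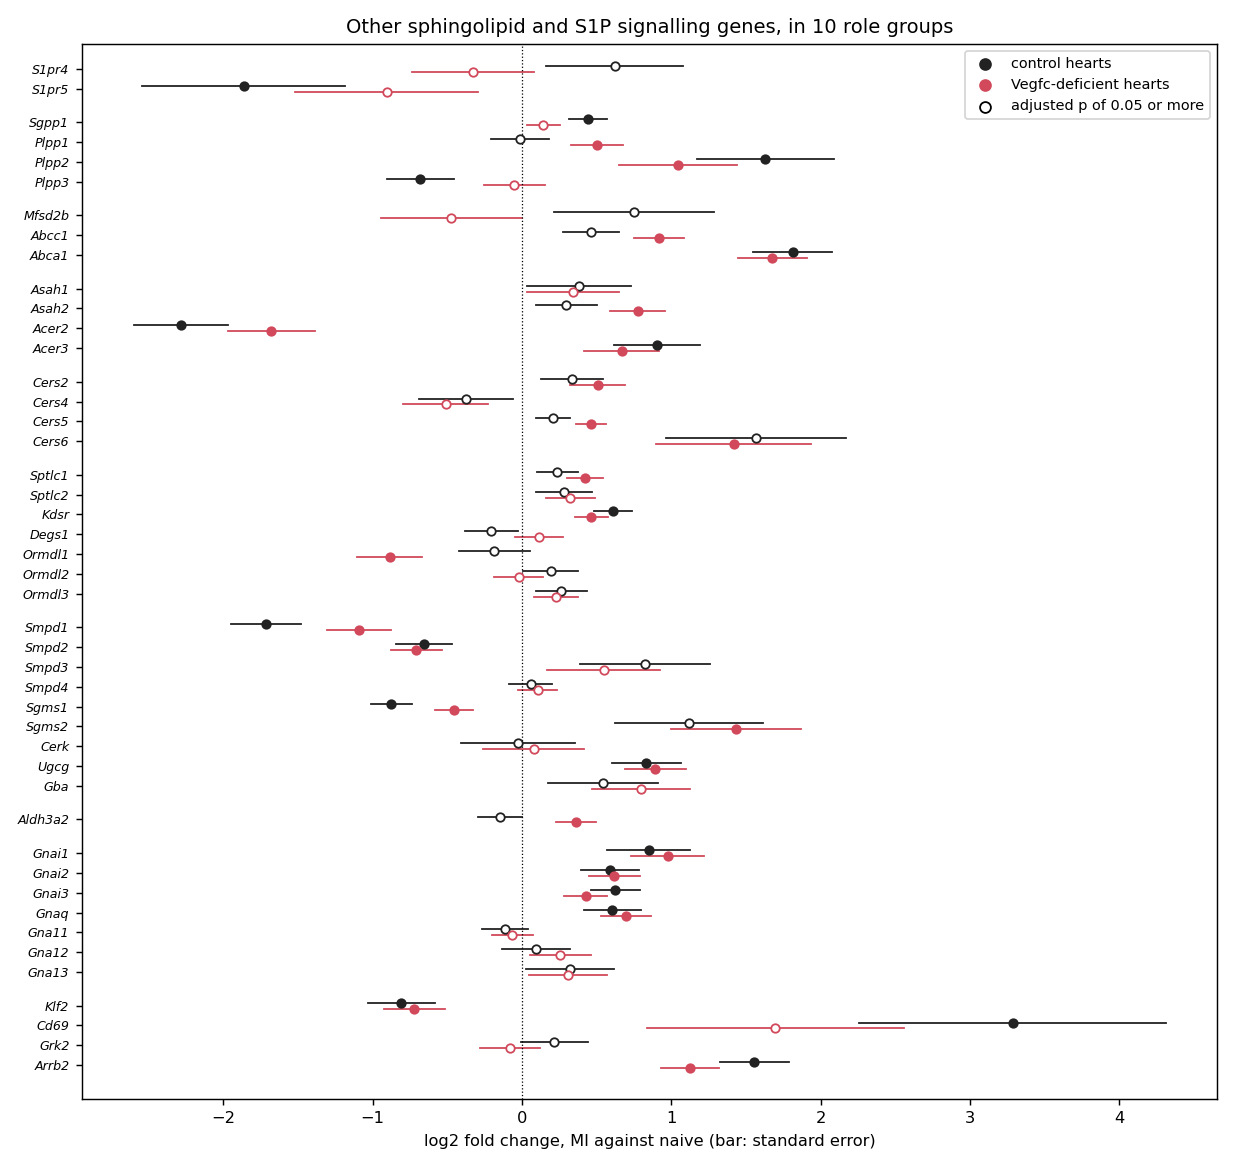
Log2 fold change of MI against naive (horizontal axis, bars for the standard error) of 45 other pathway genes in 10 role groups, in control (black) and Vegfc-deficient hearts (red), with open points for an adjusted p of 0.05 or more. Acer2 lies furthest to the left in both genotypes, at -2.29 and -1.68, Abca1 and Arrb2 lie to the right, and Cers1, at 0 counts in naive control libraries, is not drawn.

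After MI, 0 of the 46 genes passed the edgeR test between genotypes after adjustment, and 2 lay under an unadjusted p of 0.05, Smpd1 (log2 fold change 0.50, standard error 0.21) and Abcc1 (0.37, standard error 0.16), which are named after their values were seen. The DESeq2 Wald test called 0 of them. The 19 genes with the largest mean CPM of their role groups had log2 fold changes from -0.75 (S1pr4) to 0.74 (S1pr5). These 2 ends came from the genes with the lowest means of the 19, 2.43 CPM for S1pr4 and 0.615 CPM for S1pr5, which lay near the floor. S1pr4 was at 5.44 CPM in MI control M38 and at 2.21 and 2.05 CPM in M006 and M40. Between the naive groups, and for the interaction, 0 of the 46 passed the edgeR test after adjustment, 2 lay under an unadjusted p of 0.05 in each, and DESeq2 called 0 of those to which it gave an adjusted p.

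The genes whose pattern over the 11 libraries was nearest to a member were found by the root mean square (RMS) difference of mean-centred log2 CPM, among 14778 genes, as a description in which all libraries share the split between MI and naive. Nearest to S1pr2 were Cyb561a3 (RMS difference 0.12), Lrp1, an endocytic receptor (0.12), and Slc39a6, a zinc transporter (0.12), against an SD of 0.71 for S1pr2 itself. Sgpl1 was nearest to Sirpa, a myeloid receptor for CD47 (0.11), Lgmn, the lysosomal protease legumain (0.15), and Naglu, a lysosomal hydrolase (0.15), with an SD of 0.78 for Sgpl1. For Sphk1 (SD 0.78) they were Wdr6 (0.11), Cttn, which encodes the actin-binding protein cortactin (0.16), and Iffo2 (0.16).

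S1pr3 had more distant neighbours, Gm30122 (0.23), Dusp18, a protein phosphatase (0.24), and Pcca, a subunit of mitochondrial propionyl-CoA carboxylase (0.25), with an SD of 0.85. These 3 genes had log2 fold changes of 0.31, 0.36 and 0.35 between the MI groups, where S1pr3 had 0.75. For S1pr1 (SD 0.47) they were Aif1l (0.19), Rtl8a (0.20) and Arap2 (0.21), for Sphk2 (SD 0.34) Zbtb42 (0.13), Ubald1 (0.13) and Gna12 (0.14), and for Spns2 (SD 0.30) Samd10 (0.11), Tedc2 (0.13) and Caap1 (0.13).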

How the data were processed

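Stranded mRNA libraries were made from left ventricular RNA, 1 for each of 11 mice. The authors deposited unnormalized counts of reads per Ensembl gene. The submitters' processing notes name cutadapt 1.13, STAR, HTSeq 0.6.1p1, DESeq2 1.14.1 and build mm10, and the strand setting of the counting is not given in the sources used here. Whether reads in bases shared by overlapping genes were counted for 1 of the genes or left out can therefore not be told. Of 25006 gene IDs, 24991 were matched to GENCODE M21 (GRCm38), which gave symbols, positions and union exon lengths for RPKM.

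The members and all lists were chosen with earlier results of these data known. Groups were taken from the labels. Counts were filtered with filterByExpr by group, scaled by TMM and tested with edgeR 4.0.16 in R 4.3.3 (quasi-likelihood test, all 11 libraries in 1 fit, because only 2 are naive controls), with Benjamini-Hochberg adjustment over 14779 genes and a threshold of 0.05. Standard errors are the size of the log2 fold change divided by the square root of the F statistic of its quasi-likelihood test. The 95% intervals use these errors and the t quantile of the fit. Log2 CPM for patterns used a prior count of 2. The named genes were all 7 members, up to 3 genes per pathway group and direction with the smallest p among those past the threshold and otherwise up to 2 with the largest mean CPM, the 3 genes nearest in pattern to each member, and Vegfc, Lyz2 and Xist. Alternatives were DESeq2 1.42.0 (size factors, and the Wald test), scaling that leaves out 88 genes (ribosomal, haemoglobin, mitochondrial), no filter, a mean CPM of at least 1, a threshold of 0.01, fits restricted to the groups compared, and each library left out in turn. The DESeq2 Wald test on all genes with a count was added after the data were seen. The tests were first tested on simulated data. Pairs of replicates had a chi-square of 8.31 to 172 per degree of freedom, so none was a duplicate. Figures were drawn with matplotlib 3.10.9.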

Additional observations from a re-analysis of the deposited data

How the results depend on the processing

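At an adjusted p under 0.01, 2 members and 7 pathway genes passed for MI against naive in control hearts, in place of 5 and 20, and 14 pathway genes in place of 26 in Vegfc-deficient hearts. Leaving out each library, the count for control hearts ran from 2 members (without naive control M45 or M44) to 6 (without M149) and from 8 pathway genes (without naive control M44) to 24 (without M149). For Vegfc-deficient hearts it ran from 3 members to 5 (without M149) and from 17 pathway genes (without MI Vegfc-deficient M900) to 28 (without M149 or without M35). In the genotype and interaction comparisons these counts were 0 to 0 by edgeR. The DESeq2 Wald test on all genes with a count called 1 member in the interaction, S1pr3. Of the log2 fold changes of single members under the alternatives, 596 kept their direction and moved by less than 1 standard error, and 27 moved further or changed sign without having passed the threshold. The cause of these changes was not tested, except that fits without a library hold fewer samples. Between scalings the median of all genes moved by at most 0.062 in size. No paired analysis was possible because the labels give mouse names and no replicate numbers shared between groups. Depth limits S1pr5 and Cers1, whose counts lie near the floor.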
